A study of Homo sapiens with 8 samples.

Results

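The P300 regions between genes were the listed P300 regions that touched no RefSeq protein-coding gene of GRCh38 and lay more than 3000 bp from either end of one. They numbered 11341 of 20496 listed P300 regions, or 55.3%. By the same rule 56.4% of bases lay between genes, counted from the first to the last RefSeq gene of each chromosome. A further 1105 regions lay at gene ends, within 3000 bp of one, and 8050 lay inside genes. The cells were of the established line NCI-H69, from a human small cell lung cancer. They were transfected with siRNA against CSNK2B or, as the control, with a non-targeting siRNA. CSNK2B encodes the regulatory beta subunit of the protein kinase casein kinase 2. Chromatin was fixed with 1% formaldehyde 48 h after transfection and precipitated with an antibody against P300. There was 1 precipitated library per arm, so no difference below had a replicate check and no test of the conditions could be made. NCI-H69 stands for 1 tumour, siRNA lowers a gene's RNA only for a time, and the labels name no clone. ChIP reads do not measure RNA, so the loss of CSNK2B itself was not checked in these data.

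P300 is a histone acetyltransferase encoded by EP300. It is brought to chromatin by transcription factors and acetylates histone H3 at lysine 27, a mark of active enhancers and promoters. Enhancers often lie far from the genes they act on, and P300 binding away from gene starts is a widely used sign of them. Many long non-coding RNAs (lncRNAs) also start between protein-coding genes. The nearest protein-coding gene is given below only to place a region, since the data do not link a region to a target.

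Each region's deposited RPKM, reads per kilobase scaled to depth, came to whole reads at 11261 of the regions once multiplied by the region's width, and the reads of the other 80 were read off regions with identical deposited values. All 11341 regions are therefore described by their reads in both libraries, called knockdown reads and control reads below. Only regions with an unadjusted p-value below 0.05 in the authors' deposited table were listed. The lowest adjusted p-value among the regions between genes was 0.260 in that table, so 0 of them passed 0.05 after adjustment. The name of a region gives the arm of its peak call, and at all 11341 regions this was also the arm with more signal. The direction of a region and the arm of its peak call therefore cannot be told apart.

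The regions that touched the start of a lncRNA gene are shown first, because an annotated transcription start lies in or next to them. Of 12917 lncRNA start windows in the RefSeq table, each running from 250 bp before to 50 bp after a start, 24 were overlapped by a region between genes (0.186%). The 12917 windows were not limited to starts between protein-coding genes, the only ones that these regions could overlap. Of these 24 regions, 10 were higher and 14 were lower after knockdown, beside 34.7% higher among all listed P300 regions. A window was called CpG-rich when it held at least 20 CpG pairs, a limit chosen after the values were seen, and 21.1% of lncRNA windows met it. Only 4 of the 24 windows were CpG-rich, and their regions were higher in all 4, with an exact interval of 39.8% to 100% for that share. The sequences of these 4 windows follow, from RefSeq on GRCh38.p14, 5′ to 3′ on the gene's strand, with matches to the searched motifs in capitals.
LOC105370869 chr15:66842420-66842719 (-): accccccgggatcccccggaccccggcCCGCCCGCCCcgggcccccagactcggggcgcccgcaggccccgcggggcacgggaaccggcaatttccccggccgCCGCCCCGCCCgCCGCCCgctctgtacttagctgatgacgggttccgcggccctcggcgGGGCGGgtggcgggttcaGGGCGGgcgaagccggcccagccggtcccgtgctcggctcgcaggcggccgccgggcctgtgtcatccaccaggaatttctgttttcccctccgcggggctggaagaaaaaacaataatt
LINC00526 chr18:5237980-5238279 (-): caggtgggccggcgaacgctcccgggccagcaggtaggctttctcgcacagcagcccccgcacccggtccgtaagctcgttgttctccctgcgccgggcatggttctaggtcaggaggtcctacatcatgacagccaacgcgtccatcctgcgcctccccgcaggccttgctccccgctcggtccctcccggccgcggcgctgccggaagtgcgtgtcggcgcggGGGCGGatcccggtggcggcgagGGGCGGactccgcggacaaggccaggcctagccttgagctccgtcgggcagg
ENEMAL chr11:65477438-65477737 (-): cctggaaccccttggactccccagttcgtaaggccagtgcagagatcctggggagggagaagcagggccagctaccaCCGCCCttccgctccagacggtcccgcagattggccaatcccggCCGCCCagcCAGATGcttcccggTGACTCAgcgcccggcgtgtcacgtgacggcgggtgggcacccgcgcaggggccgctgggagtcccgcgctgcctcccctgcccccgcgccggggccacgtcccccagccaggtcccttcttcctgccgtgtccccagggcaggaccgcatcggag
FLJ46875 chr2:156342071-156342370 (-): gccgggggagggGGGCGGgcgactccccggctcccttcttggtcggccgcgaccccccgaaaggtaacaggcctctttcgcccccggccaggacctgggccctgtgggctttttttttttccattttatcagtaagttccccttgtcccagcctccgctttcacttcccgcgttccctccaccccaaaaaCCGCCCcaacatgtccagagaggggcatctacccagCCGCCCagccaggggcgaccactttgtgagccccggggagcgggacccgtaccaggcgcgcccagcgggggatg

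The region at FLJ46875, a lncRNA 9.25 kb from NR4A2, had 23 knockdown reads and 6 control reads. NR4A2 is an orphan nuclear receptor known from dopaminergic neurons. The fold was 4.43 (95% exact interval 1.75 to 13.3), with reads scaled to the reads in all tested regions. The region at LOC105370869, 59.7 kb from SMAD6, an inhibitory SMAD of bone morphogenetic protein signalling, had 19 knockdown reads and 5 control reads. At ENEMAL the region had 16 knockdown reads and 3 control reads, and it covered only 24 bases of the window. At LINC00526 it had 11 knockdown reads and 0 control reads, which gave 4.23-fold against a floor of 3 reads, with an exact lower limit of 2.90. All 4 were high in the knockdown library. Each window held the GC box GGGCGG on either strand, with 7 matches at LOC105370869, 3 at FLJ46875 and 2 at each of the others. The GC box occurs in 25.5% of lncRNA windows and 45.0% of all 35116 windows in the table. The box itself holds a CpG, and these 4 windows were picked for their CpG pairs. Its presence in all 4 is therefore no separate trait, and its share among CpG-rich windows alone is not given here. ENEMAL also matched TGANTCA, the AP-1 element, which occurs in 10.4% of lncRNA windows, and CAGATG, an E-box in 19.02% of them.

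The other 20 windows were not CpG-rich, and 6 of their regions were higher and 14 lower after knockdown. The sequences of 5 of them are shown because a region covered at least 80% of the window and its reads were whole at the listed width. At 2 more windows, of LOC105369915 and LOC105372346, the deposited RPKM gave whole reads only at another width than the listed one, so the overlap there is uncertain.
LOC105371610 chr1:170640663-170640962 (+): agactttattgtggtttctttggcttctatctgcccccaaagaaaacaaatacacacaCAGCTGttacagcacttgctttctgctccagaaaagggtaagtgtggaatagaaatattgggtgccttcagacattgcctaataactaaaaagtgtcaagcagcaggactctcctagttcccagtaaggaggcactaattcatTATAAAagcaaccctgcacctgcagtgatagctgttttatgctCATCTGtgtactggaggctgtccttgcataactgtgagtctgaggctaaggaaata
LINC00358 chr13:62029499-62029798 (-): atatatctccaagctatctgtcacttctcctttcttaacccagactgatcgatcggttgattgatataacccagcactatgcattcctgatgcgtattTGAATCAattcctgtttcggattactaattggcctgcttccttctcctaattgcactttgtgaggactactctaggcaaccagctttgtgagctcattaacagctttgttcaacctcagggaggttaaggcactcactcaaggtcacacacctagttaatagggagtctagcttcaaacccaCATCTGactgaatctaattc
LOC107986049 chr3:162211060-162211359 (+): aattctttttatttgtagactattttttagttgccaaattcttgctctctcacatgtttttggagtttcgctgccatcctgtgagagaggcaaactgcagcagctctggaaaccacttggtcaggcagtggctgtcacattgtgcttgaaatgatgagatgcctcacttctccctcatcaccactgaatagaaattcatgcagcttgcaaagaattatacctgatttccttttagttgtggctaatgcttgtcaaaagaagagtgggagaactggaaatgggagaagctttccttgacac
LINC01994 chr3:182486313-182486612 (-): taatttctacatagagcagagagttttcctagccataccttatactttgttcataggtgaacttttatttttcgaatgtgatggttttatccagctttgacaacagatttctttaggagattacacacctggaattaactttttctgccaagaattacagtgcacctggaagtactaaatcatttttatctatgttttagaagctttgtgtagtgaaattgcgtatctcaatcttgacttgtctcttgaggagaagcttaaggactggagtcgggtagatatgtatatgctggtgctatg
LOC105377543 chr4:173990917-173991216 (-): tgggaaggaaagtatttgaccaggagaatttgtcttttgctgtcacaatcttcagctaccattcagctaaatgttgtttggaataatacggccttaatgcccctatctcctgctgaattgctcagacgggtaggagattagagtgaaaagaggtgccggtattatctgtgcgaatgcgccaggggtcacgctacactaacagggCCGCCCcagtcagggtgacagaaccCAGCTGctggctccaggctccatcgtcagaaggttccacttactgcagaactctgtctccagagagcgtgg

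Of these 5, only LOC105371610 had a higher region, with 11 knockdown reads and 2 control reads (6.35-fold, 1.39 to 59.0). It lies 21.8 kb from PRRX1, a homeobox factor of mesenchyme. The other 4 were high in the control library. LOC107986049 had 9 knockdown reads and 23 control reads, 2.21-fold lower with an interval of 0.987 to 5.43 that includes no change. LINC00358, 614 kb from the protocadherin gene PCDH20, had 2 knockdown reads and 9 control reads. LINC01994 and LOC105377543 had 0 knockdown reads and 8 control reads each. Across all 24 windows the median G+C content was 42.3%, against 50% over all lncRNA windows, a set not limited to starts between protein-coding genes. The cAMP response element TGACGTCA, which occurs in 1.15% of lncRNA windows, was in none of the 9 windows shown. The other motifs searched on both strands were CAGCTG, another E-box, and the TATA element TATAAA, found in 17.8% and 15.1% of lncRNA windows. LOC105371610 matched both E-boxes and the TATA element, LINC00358 matched the AP-1 element and the E-box CAGATG, and LOC105377543 matched the E-box CAGCTG and the GC box. LOC107986049 and LINC01994 matched none of the 6 motifs. A match is a run of letters and not a bound site.

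Regions at genes gave a separate set of start windows. There 46 of 81 P300 regions at CpG-rich windows were higher after knockdown (56.8%, 45.3 to 67.8), and 20 of 47 at other windows (42.6%, 28.3 to 57.8). The exact intervals cover counting error over regions only, and here they overlap. Of all P300 regions at or inside genes, 34.8% were higher. The median was 19 reads over both libraries at CpG-rich windows and 14 at other windows. The part of read number in these shares was not tested.

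**Figure D1:**
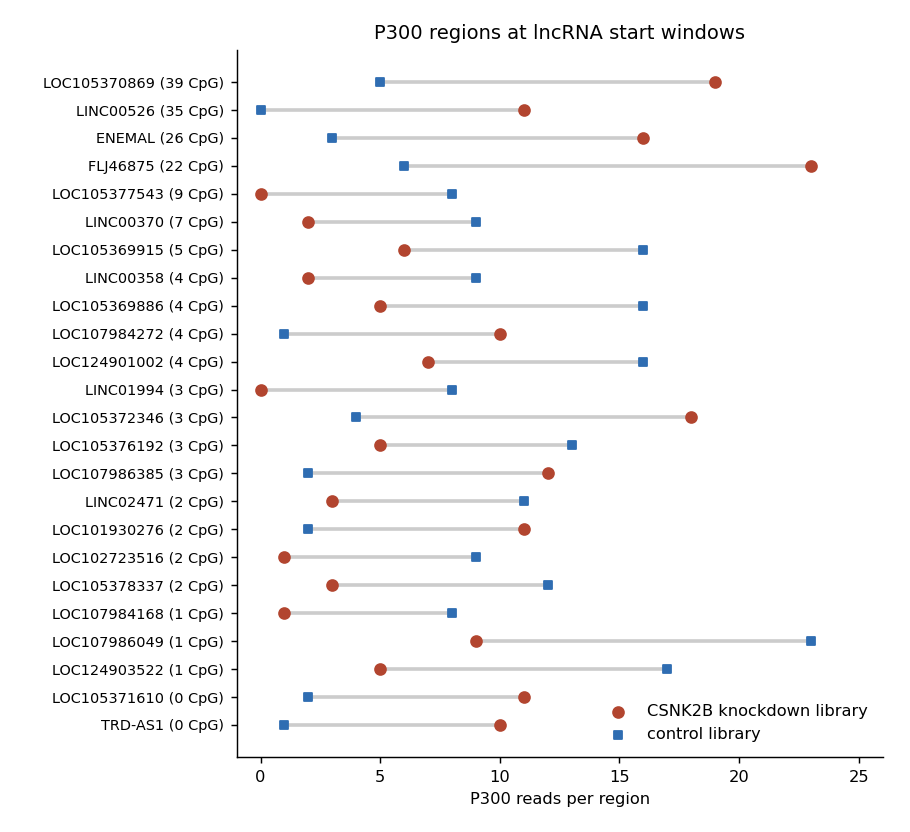
P300 reads (horizontal axis) in the CSNK2B knockdown library (circles) and the control library (squares) for the 24 regions between genes that overlap a lncRNA start window, 1 line per window, ordered by the number of CpG pairs in the window. The 4 windows with at least 20 CpG at the top all have more reads in the knockdown library, and the 20 below point both ways.

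Of 1562 annotated microRNA hairpins, 2 were touched. The hairpin of MIR216B lay whole inside a region at chr2:56000593-56000930, which had 17 knockdown reads and 4 control reads (4.91-fold, 1.60 to 20.05). MIR216B encodes a microRNA best known from the pancreas. Its mature arms are given with the seed, bases 2 to 8, in capitals, from the same RefSeq build.
hsa-miR-216b-5p chr2:56000764-56000785 (-): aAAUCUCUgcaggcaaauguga
hsa-miR-216b-3p chr2:56000724-56000747 (-): aCACACUUacccguagagauucua

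The region near MIR519C, of the placental microRNA cluster on chromosome 19, shared only 4 bases with its hairpin and had 9 knockdown reads and 1 control read.

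Fewer P300 regions between genes were higher after knockdown than lower. There were 3935 higher regions (34.7%, against a background of 34.7% of all listed P300 regions) and 7406 lower ones (65.3% of all listed regions were lower). The share that was higher was 34.7% between genes (33.8 to 35.6) and 34.8% in the 9155 regions at or inside genes. Gene ends alone gave 38.2% (35.3 to 41.1), with an interval that meets that between genes, and regions inside genes 34.3%. All 3935 higher regions and 7294 of the lower ones had at least a 2-fold ratio of RPKM with a pseudocount of 1, and 64.3% of all listed regions passed that in the lower direction. At least a 4-fold ratio was reached by 3874 higher and 4004 lower regions, beside 34.0% and 34.4% of all listed regions. Of the 2553 regions with an unadjusted p-value of at most 0.01 in the authors' deposited table, 1023 were higher and 1530 lower (40.1% higher, beside 41.0% of all listed regions at that p-value). The median log2 ratio was 3.15 for higher regions, -2.08 for lower ones and -1.72 for both together.

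The reads behind these ratios were few. Higher regions had a median of 11 knockdown reads and 1 control read, and lower regions a median of 2 knockdown reads and 10 control reads. No region had more than 49 reads in both libraries together. The control had 0 reads at 575 higher regions, and the knockdown library had 0 at 1242 lower ones. Whole-read pairs recurred: 2 knockdown reads and 9 control reads described 1053 regions, and 1 knockdown read and 8 control reads described 945. The 6 most common of 176 pairs accounted for 37.5% of the regions. Beside 1 read in the other library, listed regions started at 9 reads when higher and at 8 when lower. Beside 2 they started at 11 and 9 reads, and beside 3 at 13 and 11.

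**Figure D2:**
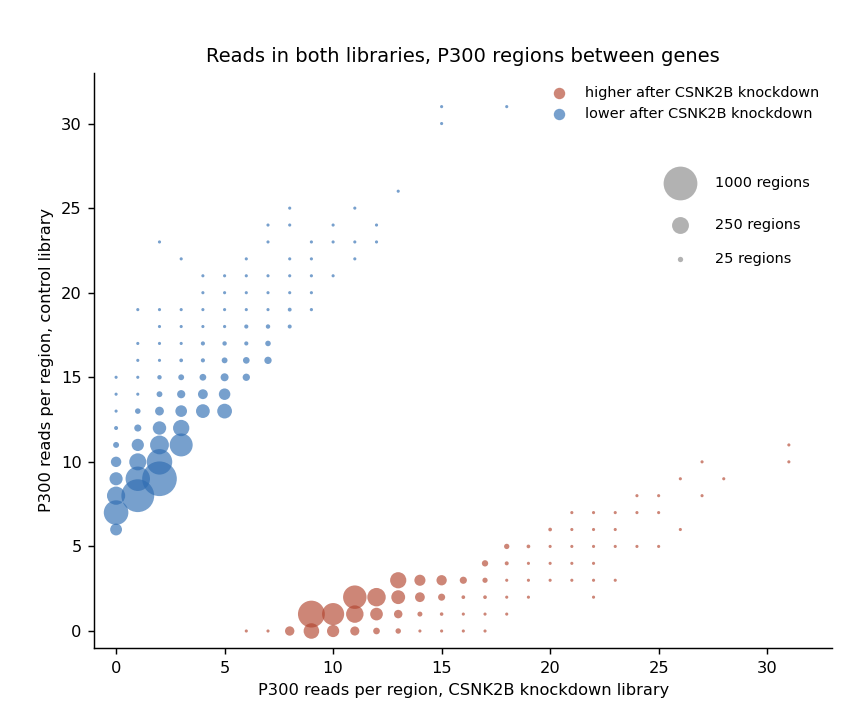
Reads per region in the CSNK2B knockdown library (horizontal axis) and the control library (vertical axis) for the 11341 P300 regions between genes, with the area of a circle giving the number of regions at that pair of reads, and colour the direction. The regions form 2 separate wedges, with none near equal reads, and the table lists only regions with an unadjusted p-value below 0.05.

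Whether the interval of a lower region excluded no change depended on the scaling. With reads scaled to all tested regions, the 95% exact interval of the fold excluded no change at all 3935 higher regions. It included no change at 4205 of 7406 lower ones (56.8%), beside 57.4% of the lower regions among all listed P300 regions. On the scale of the authors' log2 fold change, which lies lower by 0.39 (log2), the interval included no change at 191 lower regions. No region changed sign between these scalings. Regions were listed only with an unadjusted p-value below 0.05 in the authors' deposited table, which rests on the same libraries. An interval that excludes no change therefore came largely with the listing and is no separate check of a change. The same holds for the intervals of single regions named here.

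**Figure D3:**
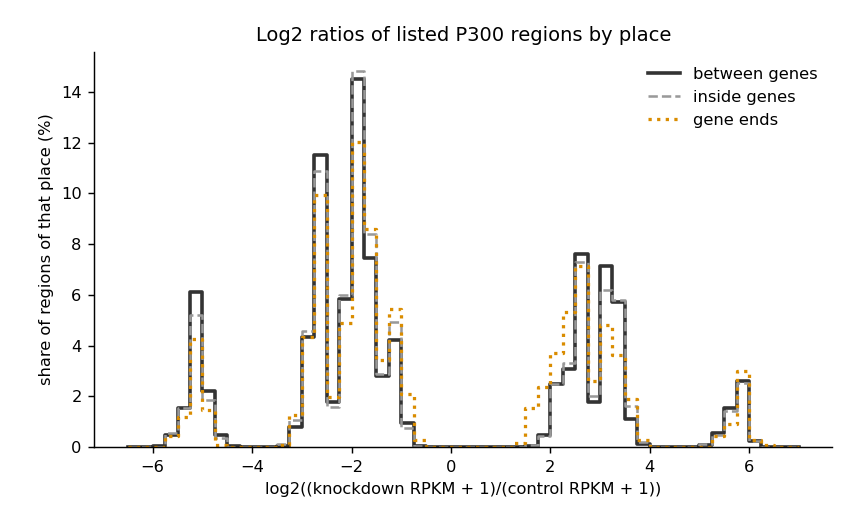
Share of listed P300 regions (vertical axis, %) by log2 ratio of knockdown to control RPKM with a pseudocount of 1 (horizontal axis), for regions between genes (solid), inside genes (dashed) and at gene ends (dotted). The curves of regions between and inside genes nearly coincide, and the outermost groups on each side are regions with 0 reads in 1 library.

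The higher region with the most reads lay 415 kb from UQCRFS1, the Rieske subunit of respiratory complex III, at chr19:28789343-28789985. It had 31 knockdown reads and 11 control reads, 50.9 and 15.7 RPKM (3.25-fold, 1.59 to 7.18). A region inside the lncRNA LINC01483, 251 kb from the inward rectifier potassium channel gene KCNJ16, had 31 knockdown reads and 10 control reads. Closer to genes, a region 5.22 kb from CLCF1, a cytokine of the interleukin-6 family, had 26 knockdown reads and 6 control reads (5.00-fold, 2.01 to 14.9). ONECUT1, a cut-homeodomain factor, and MAFK, a small MAF partner of NRF2, each had a region 10.2 to 16.8 kb away with 25 knockdown reads and 7 control reads. Among the 10 deepest higher regions the fold ran between 3.12 and 5.00.

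The deepest lower regions had smaller differences. The first, 274 kb from the zinc finger gene ZNF254, had 18 knockdown reads and 31 control reads, 1.49-fold lower (0.809 to 2.83). Another, 435 kb from MYC on chromosome 8, had 15 knockdown reads and 30 control reads, 1.73-fold lower (0.903 to 3.46). Regions near the keratin gene KRT80 and the mitochondrial GTPase gene RHOT1 had 12 reads after knockdown and 24 and 23 in the control. All 10 of the deepest lower regions had an interval that included no change with reads scaled to all tested regions. The scale of the authors' log2 fold change lies lower by 0.39 (log2), which moves these intervals away from no change. Those 177 kb from POTEM and 466 kb from ANKRD30B have nearest genes of families with near-identical copies, and the placing of reads there is uncertain.

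The largest ratios came from regions with 0 reads in 1 library. A region 265 kb from IRS1, the insulin receptor substrate, had 16 knockdown reads and 0 control reads. It was 6.16-fold higher against the floor of 3 reads, with an exact lower limit of 4.45. One 583 kb from LRFN5, a synaptic adhesion gene, had 15 knockdown reads and 0 control reads. Regions 53.0 kb from SEMA3E, a semaphorin, and 3.71 kb from PPP1R1C, a phosphatase inhibitor subunit, each had 13 knockdown reads and 0 control reads. In the lower direction, a region 28.3 kb from DNAH5, a dynein heavy chain of cilia, had 0 knockdown reads and 12 control reads. It was 3.46-fold lower against the same floor, with an exact lower limit of 2.41. A region 211 kb from HAO1, a liver oxidase gene, had 0 knockdown reads and 11 control reads. Regions 50.6 kb from EGLN3, a prolyl hydroxylase of the hypoxia pathway, and 277 kb from SOX6 each had 0 knockdown reads and 10 control reads.

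Regions within 100 kb of a listed gene were counted by the role of that gene, beside 5114 regions that lay within 100 kb of any protein-coding gene, of which 35.7% were higher. The lists were chosen with earlier results of these data known. Over all 20037 protein-coding genes, 3440 (17.2%) had such a region. The shares of genes with a region were not scaled to the length of sequence between genes around each gene. They are counts only, and whether any list has more regions than its surroundings allow was not tested. Of 68 developmental homeobox genes, 39 (57.4%) had 60 regions, 28 higher and 32 lower (46.7% higher, with a lower limit of 33.7%), with a median log2 ratio of -1.39 against -1.70 for all regions within 100 kb. The region by EN1, a midbrain patterning factor in mouse, had 13 knockdown reads and 1 control read. Those by LHX2, ALX1 and PAX9 each had 9 knockdown reads and 0 control reads. IRX2 had 4 regions, 2 higher and 2 lower, and both regions by NKX2-1, a lineage factor of lung, were lower.

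SOX and forkhead genes had mostly lower regions. Of 36 such genes, 12 (33.3%) had 19 regions, 3 higher and 16 lower (15.8% higher, 3.38 to 39.6). SOX2, a lineage oncogene of small cell lung cancer, had 1 region at 76.8 kb with 9 knockdown reads and 1 control read. FOXA2, a factor of endoderm, had 1 region with 1 knockdown read and 10 control reads. FOXD1 had 4 regions, 1 higher and 3 lower, and SOX5 and SOX11 had 2 lower regions each. The intervals of both lists include the share of all regions within 100 kb.

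Of 40 neuroendocrine identity genes, which mark most small cell lung cancers, 14 (35%) had 20 regions, 6 higher and 14 lower. CALCA, the calcitonin gene, had a region 6.53 kb away with 11 knockdown reads and 2 control reads, and MYT1L, a neuronal zinc finger factor, had one with 12 knockdown reads and 2 control reads and one that was lower. Both regions by STMN2, a neuronal microtubule gene, and those by SCG2 and SYT1, of secretory granules and vesicles, were lower. CHGB and SCG3, also of secretory granules, had 1 region each, 4.07 and 22.9 kb away, and these were higher. Of 30 genes of the non-neuroendocrine and mesenchymal state, 8 (26.7%) had 9 regions, 5 higher and 4 lower. Among these, CAV2, a caveolin, had 14 knockdown reads and 2 control reads, NOTCH1 had 12 knockdown reads and 2 control reads, and CCN1, a YAP target, had 10 knockdown reads and 1 control read. EPHA2, an ephrin receptor, had 1 higher region and the integrin gene ITGB1 had 1 higher and 1 lower. VIM, the intermediate filament vimentin, WWTR1, which encodes TAZ, and ANXA1, an annexin, had 1 lower region each. With 9 regions a share is loosely set (55.6% higher, 21.2 to 86.3).

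Neural cell adhesion genes had 58 regions by 28 of 51 genes (54.9%), 19 higher and 39 lower. CNTN3, a contactin, and PCDH8, a protocadherin, each had a region with 10 knockdown reads and 0 control reads, and CNTN3 also had another higher and 1 lower region. All 3 regions by SLITRK6, a synaptic adhesion gene, were lower. Ion channel and neurotransmitter receptor genes had 42 regions by 26 of 49 genes (53.1%), 15 higher and 27 lower. CHRM2, a muscarinic receptor, had one with 12 knockdown reads and 0 control reads, and the potassium channel genes KCNB2 and KCNA4 each had one with 10 knockdown reads and 0 control reads. CHRM2 and KCNA4 also had 1 lower region each, and all 3 by GRIN2B, an NMDA receptor subunit gene, were lower. Zinc finger, nuclear factor I, EBF and related developmental genes had 33 regions, 12 higher and 21 lower. TLE1 and TLE4, corepressors of the Groucho family, had regions with 12 and 11 knockdown reads and 1 control read each, but the other 4 of the 5 regions by TLE4 were lower. The median log2 ratios of these lists were -1.85, -1.80 and -1.84.

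Of 22 MYC family and lineage genes, 7 (31.8%) had 10 regions, 3 higher and 7 lower. The region 46.0 kb from MYC had 15 knockdown reads and 3 control reads, whereas MYCN had 3 regions and all were lower. Within PVT1, the lncRNA next to MYC, both regions were higher, and 1 of them had 24 knockdown reads and 7 control reads (3.96-fold, 1.66 to 10.9). For casein kinase 2 itself, CSNK2A2, a catalytic subunit, had 1 region 6.17 kb away with 0 knockdown reads and 7 control reads. No region lay nearest to CSNK2B within 100 kb. Of genes that mark other cell types, 2 of 14 hepatocyte genes had 2 regions (1 higher, 1 lower) and 2 of 12 T cell genes had 2, both lower. Among 12 fibroblast genes 6 (50%) had 9 regions, 2 higher and 7 lower, of which 4 were by COL1A2, a collagen gene.

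Of the regions between genes, 3037 (26.8%) overlapped a non-coding gene or pseudogene and 8304 touched no annotated gene of any class. The shares higher after knockdown were 35.2% and 34.5%. LncRNA genes held 2812 regions, of which 987 were higher. The T cell receptor alpha locus TRA held 14, 7 higher and 7 lower. LMCD1-AS1 held 11 regions in 281 kb, the highest number per length among the 20 genes with the most. Of 53 non-coding genes listed by name, 18 held 34 regions, 15 higher and 19 lower, with 7 at LINC01122.

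Distance to the nearest protein-coding gene had a median of 116 kb for higher and 125 kb for lower regions, and the farthest lay 4167 kb away. The share higher was 38.7% at 3 to 10 kb (35.4 to 42.1), between 34.6% and 36.2% from 10 to 300 kb, 32.1% at 300 to 1000 kb and 28.8% beyond 1000 kb (24.8 to 33.1). Among regions with at least 12 reads it was 45.0% at 3 to 10 kb and 33.9% beyond 1000 kb, where 41.1% of all such listed regions were higher. Those nearest to the limit of 3000 bp had 12 knockdown reads and 1 control read by STAM, and 1 knockdown read and 8 control reads by CKAP5. Just short of it, regions outside the set had 18 knockdown reads and 4 control reads by WFDC2, and 3 knockdown reads and 15 control reads by SMARCAL1. A second region on each side by direction was at PLCH1 and IBA57 inside the limit, with 9 knockdown reads and 1 control read and with 2 knockdown reads and 11 control reads. At HROB and OR5K2 outside it, the values were 14 knockdown reads and 2 control reads and 2 knockdown reads and 11 control reads. Of the 5 farthest regions in each direction, 10 in all, 7 lay on chromosome 22 with OR11H1 as the nearest gene, in duplicated sequence where read placing is uncertain.

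**Figure D4:**
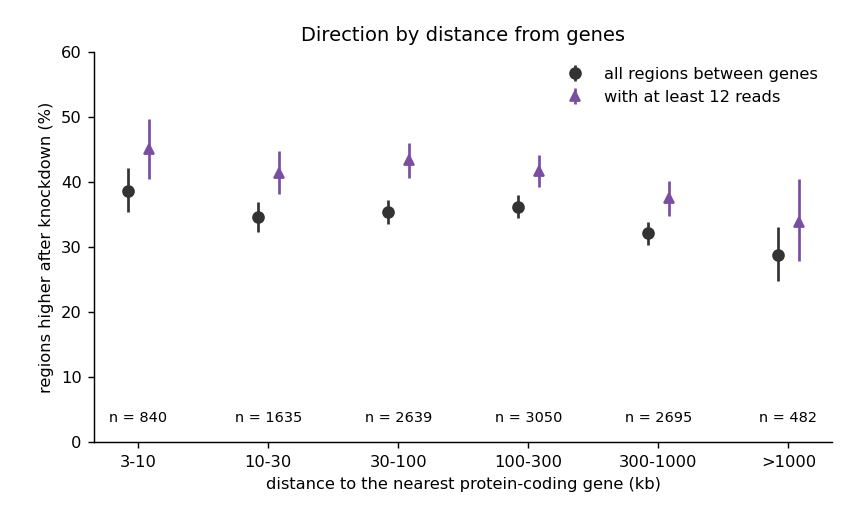
Share of P300 regions between genes that were higher after CSNK2B knockdown (vertical axis, %) by distance to the nearest protein-coding gene (horizontal axis, kb), for all regions (circles) and those with at least 12 reads (triangles), with 95% exact intervals. Beyond 1000 kb both shares are at their lowest, 28.8% and 33.9%.

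The share higher also moved with reads and width. It was 12.7% at 6 to 9 reads, 37.0% at 10 to 12, 51.1% at 13 to 16, 31.2% at 17 to 19 and 29.1% at 20 or more. Regions at or inside genes gave 12.9%, 34.7%, 50.8%, 28.6% and 36.5% in the same bands. At 20 or more reads, 206 of 707 regions between genes were higher (29.1%, 25.8 to 32.6), beside 83 of 178 at gene ends (46.6%, 39.1 to 54.2), 180 of 543 inside genes (33.1%) and 32.8% of all listed. The interval between genes did not meet that at gene ends. By width, 44.8% of regions of up to 200 bp were higher and 21.0% of those over 500 bp. Regions at or inside genes gave 43.8% and 22.8% in these width bands. The smallest width was 179 bp for higher and 185 bp for lower regions between genes, reached by 29.2% and 18.1% of them. The part of read number and width in these shares was not tested.

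Regions were spread unevenly over chromosomes. They numbered 6.52 per Mb of sequence between genes over the genome, 10.7 on chromosome 5 and 10.1 on chromosome 2, but 3.97 on chromosome 4, 3.89 on 6, 3.06 on 13 and 2.94 on X. The share higher was low on the same chromosomes, 23.4% on 4, 22.1% on 6, 24.3% on 13 and 23.2% on X, and reached 49.6% on chromosome 19 (40.9 to 58.4). These 4 were picked after their values were seen. Chromosomes 18, 21 and 22, with 170, 54 and 30 regions, were also low, at 3.44, 1.64 and 1.01 per Mb and 27.1%, 20.4% and 26.7% higher, and they stay among the others below. Together chromosomes 4, 6, 13 and X had 318 of 1373 regions higher (23.2%), and the other chromosomes had 3617 of 9968 (36.3%). Among regions with at least 12 reads the shares were 28.9% on the 4 and 41.8% on the others. Regions at or inside genes, which the rule left out, gave 25.7% and 36.0%, with chromosome 6 alone at 31.7% (26.7 to 37.0). They too were unevenly spread, with 6.80 per Mb of genes extended by 3000 bp, 8.87 on chromosome 5 and 9.46 on chromosome 2. On chromosomes 4, 6, 13 and X they numbered 4.53, 4.40, 4.90 and 3.74 per Mb.

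Over 23 chromosomes the share higher between genes and the share at or inside genes had a Pearson r of 0.83 and a Spearman rho of 0.85. Regions per Mb and the share higher had an r of 0.71 and a rho of 0.61. The numbers per Mb between genes and at or inside genes had an r of 0.94 and a rho of 0.92. All of these are descriptions, since the points share their libraries and read depth.

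**Figure D5:**
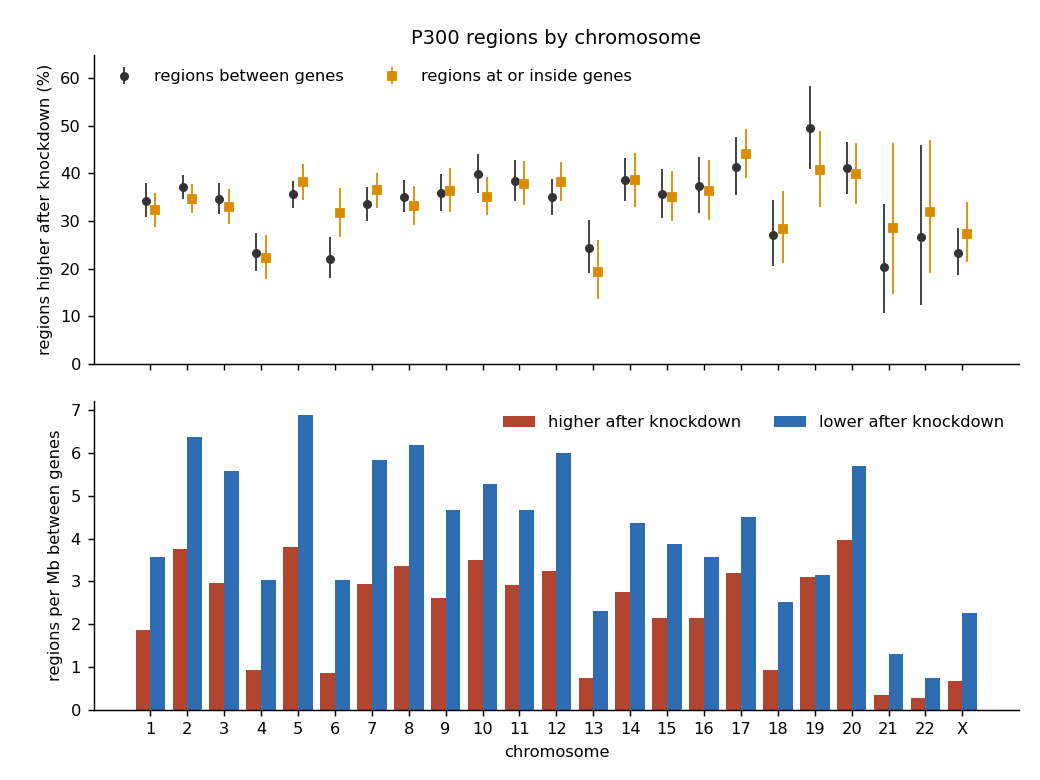
Top, share of P300 regions higher after CSNK2B knockdown (%) per chromosome, for regions between genes (circles) and at or inside genes (squares), with 95% exact intervals. Bottom, higher and lower regions between genes per Mb of sequence between genes. For regions between genes, chromosomes 4, 6, 13 and X, and likewise 18, 21 and 22, are low in both panels, and 19 has nearly as many higher as lower regions per Mb, 3.10 and 3.15.

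In windows of 5 Mb, 334 had at least 15 regions and their share higher ran from 5.26% to 67.9%, with a median of 35.3%. The extremes were chr13 at 85 to 90 Mb with 1 of 19 regions higher and chr5 at 65 to 70 Mb with 19 of 28. The densest window, chr8 at 135 to 140 Mb, held 78 regions, 30 higher and 48 lower. KHDRBS3, an RNA-binding protein gene of chromosome 8, was nearest to 36 regions, the most of any. NR2F2, an orphan nuclear receptor, was nearest to 31, 12 higher and 19 lower. In all, 4006 genes were nearest to a region, and 209 to 10 or more.

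Neighbouring regions shared a direction about as often as the split alone gives. Of 1033 pairs within 10 kb, 562 had the same direction (54.4%, 51.3 to 57.5), and the shares of higher and lower regions alone give 54.7%. The longest run of such neighbours had 7 regions over 31.8 kb at chr9:1114733-1146493, beside DMRT2, a factor of somite development in mouse. Its first region had 12 knockdown reads and 2 control reads, and the next 4 had 2 to 4 reads after knockdown and 9 to 15 in the control. The last pair had 10 knockdown reads and 1 control read, then 1 knockdown read and 9 control reads. Over the run the reads summed to 35 knockdown reads and 61 control reads. The 4 regions of a run 764 kb from HS6ST1, a heparan sulfate sulfotransferase gene, were all lower, with 6 knockdown reads and 36 control reads in sum.

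RBBP4 is a histone-binding protein shared by several chromatin complexes, and its regions in the same cells offered a readout the rule did not use. Only 113 P300 regions between genes overlapped a listed RBBP4 region by at least 1 bp, 0.996% of these P300 regions and 0.321% of the RBBP4 list. At or inside genes the share of P300 regions was 2.23%. The RBBP4 libraries carried another batch label, so ratios are compared in direction only. The directions matched at 53 of 113 (46.9%, 37.5 to 56.5). RBBP4 was higher after knockdown at 56.8% of the 44 P300-higher and 59.4% of the 69 P300-lower regions, beside 57.2% of RBBP4 regions between genes and 68.8% of all RBBP4 regions.

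Single sites went both ways. At LINC00324, 3.43 kb from the telomere gene CTC1, P300 had 25 knockdown reads and 8 control reads, and RBBP4 had 52 knockdown reads and 3 control reads. In PVT1 RBBP4 had 231 knockdown reads and 98 control reads beside the higher P300 region. By FRZB, a secreted WNT inhibitor, P300 had 8 knockdown reads and 19 control reads, whereas RBBP4 had 42 knockdown reads and 5 control reads. In a pseudogene 32.6 kb from MARCHF10, P300 had 19 knockdown reads and 5 control reads, and RBBP4 had 3 knockdown reads and 17 control reads.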

How the data were processed

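Per the file headers, the authors' values for each region are the RPKM of both precipitated libraries, a log2 fold change, a p-value and an adjusted p-value, and each antibody has a table of its own. The submitters' processing notes name the build GRCh38, the read tools Trim Galore 0.6.7, FastQC and Bowtie2 2.4.5, and the region tools DiffBind 3.4.11, MACS2 2.2.7.1 and ChIPseeker 1.28.3. The role of each is not given in the sources used here. Columns were matched to libraries by name alone.

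Positions of 20037 protein-coding genes came from RefSeq, GRCh38.p14. Multiplied by width, RPKM came to whole reads with a tolerance of 0.01 at 99.4% of P300 regions, and at 11261 of those between genes. For the other 80 the reads came from regions with the same deposited log2 fold change and mean log2 level. One read's RPKM implied 946392 reads in tested P300 regions after knockdown and 1092789 in the control, and 1207945 and 833181 for RBBP4, which could not be checked otherwise. PCR duplicates were not identifiable, so intervals and floors cover counting error only.

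Ratios were log2((knockdown RPKM + 1)/(control RPKM + 1)), which understates ratios of low regions. A region was called higher or lower from the sign of the log2 fold change that the authors deposited. Folds used reads scaled to tested regions with 95% exact (Clopper-Pearson) intervals, and a floor of 3 reads for 0 per library. Such a floored fold is no lower bound, since it ignores counting error in the other library and exceeds the exact lower limit. Named regions were, per direction, the 10 with most reads, the 10 with the largest ratio at or above the median level, the 5 farthest from genes and the 2 on each side of the limit, up to 4 per gene list, the 5 deepest shared with RBBP4 per kind, and the 5 longest runs. Not all of them are reported here. Regions at start windows and microRNA hairpins, and the others named among the gene lists, were chosen after their values were seen. The members and the 13 gene lists were chosen with earlier results of these data known. Python 3.11.15 with pandas 2.3.3, NumPy 2.4.6 and SciPy 1.17.1 was used, and read recovery and overlaps were tested on simulated data.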

Additional observations from a re-analysis of the deposited data

How the results depend on the processing

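None of the results recomputed here changed direction. The direction of each region went with the arm of its peak call, so these alternatives could not turn single regions. With at least 20 reads, a 2-fold ratio was passed by 206 regions upwards and 389 downwards, the median log2 ratio was -1.05 and 29.1% were higher. With an unadjusted p-value of at most 0.01 in the authors' deposited table the values were 1023, 1530, -2.21 and 40.1% (41.0% of all listed regions at that p-value). With at least 12 reads, an alternative added after seeing the data, they were 2374, 3297, -1.22 and 41.1%. Without chromosomes 4, 6, 13 and X, also added then, the median was -1.61 and 36.3% were higher. A 4-fold limit left 4004 lower regions, beside 34.4% of all listed regions, and the authors' log2 fold change gave a median of -2.20. The overlap with RBBP4 was 0.688% when it had to cover at least the larger part of the P300 region, and 3.01% within 1000 bp. The share of P300 regions between genes was 56.5% at 1000 bp from genes, 51.2% at 10000 bp and 37.3% when all RefSeq genes counted. Of 54 alternative values, 33 moved by less than their counting interval or stayed within 1.5 times of a count, and 21 moved by more. Leaving out a replicate was not possible with 1 library per arm. No paired analysis was possible because each arm had 1 library per antibody. The depth of at most 49 reads per region limits single folds to wide intervals.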
